A study of Mus musculus with 6 samples.

Results

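Claudins and the other tight junction genes were followed in the proximal incisor of mice that lost *Arid1b*, a subunit of the BAF chromatin remodelling complex. The members were the genes whose symbol begins with *Cldn*, *Tjp*, *Marveld* or *Jam* and ends in a number, together with a named set of partners (occludin, JAM-A, cingulins, MAGI scaffolds, polarity proteins, *Epcam*, *Cxadr* and *Esam*). The rule found 40 of the 19270 genes in the table, all of them protein coding, and it uses names only. They comprised 14 claudins, 4 MARVEL proteins including occludin, 5 JAM and CTX-type immunoglobulin proteins, 8 scaffolds of the cytoplasmic plaque, 8 polarity proteins and *Epcam*.

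Bulk RNA was sequenced from 3 control and 3 mutant libraries. The mutants were Gli1-CreER;Arid1bfl/fl mice, and both groups received tamoxifen at 1 month of age and were sampled 4 days after induction. The labels give the control genotype as wild type, whereas the methods describe Arid1b fl/fl mice given the same tamoxifen. Tamoxifen switches on the CreER recombinase in cells that express *Gli1*, whose descendants in the incisor include mesenchymal and epithelial cells, so the deletion is not limited to 1 cell type. The tissue was dissected as proximal mesenchyme. Keratins, E-cadherin and enamel matrix genes were nevertheless present in both groups.

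Tight junctions close the space between neighbouring epithelial or endothelial cells near their apical border. Claudins, which cross the membrane 4 times, form the strands, and each type either seals the gap or leaves a channel for selected ions. Occludin and tricellulin join the strands, JAM proteins add adhesion, ZO proteins and cingulin tie the strands to actin, and the PAR and Crumbs complexes place the junction along the cell's axis. In the incisor, the enamel epithelium, the odontoblast layer and the vessels of the pulp are the tissues known for such junctions, although several scaffold and polarity genes are also used by mesenchymal cells.

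The values are the authors' mean of the normalized expression of each gene in each group, scaled by library and not by gene length. Only the mean of each group was analysed here and no value of a single library for a gene, hence the means carry no SD, it is not known whether 1 library carries a mean, and no difference below can be compared with the spread between mice. A member was counted as higher or lower when the ratio of its mutant to its control mean was past 1.5-fold in either direction. Counts were taken among genes with a mean over both groups of at least 1. The estimated depth was 37123643 to 49594469 reads per library, at which 3 reads in every library correspond to a mean of 0.103 in controls and 0.0923 in mutants. Intervals given below are 95% exact binomial (Clopper-Pearson) intervals on the ratio of estimated reads and cover counting error only.

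The targeted gene was lower in the mutants, with a mean of 97.6 in controls and 38.0 in mutants for *Arid1b*, a ratio of 0.390. The groups also differed in sex-linked transcripts: the mean of *Xist* was 3368 in controls and 814 in mutants, and 4 Y-linked transcripts lay at or near the lowest possible value in controls and between 25.3 and 65.3 in mutants. The sex of the mice is not given in the sources used here, and sex and genotype cannot be told apart for any value below. The mutant means held both *Xist* and Y-linked transcripts, so the mutant group may mix both sexes. How they were divided among the mutant libraries cannot be seen from group means. In bulk tissue, fewer cells of a type and less RNA per cell cannot be told apart either.

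Of the 40 tight junction genes, 33 had a mean over both groups of at least 1. Among these, 10 were higher in the mutants by more than 1.5-fold, none was lower, and 23 were neither. Over all 14744 genes that passed the same filter, 4.14% were higher and 1.91% were lower. The 10 genes were *Cldn20*, *Cldn1*, *Ocln*, *Cldn8*, *Cldn11*, *Epcam*, *Cldn6*, *F11r*, *Marveld2* and *Cldn2*. All 10 code for membrane proteins of the junction, and no plaque scaffold or polarity gene that passed the filter was among them. Of the 33, 6 (*Cldn20*, *Cldn8*, *Cldn6*, *Cldn2*, *Cldn17* and *Marveld3*) had a control mean under 1 and passed only through the mutant mean. For these, passing the filter is not independent of a higher ratio, although *Cldn17* and *Marveld3* were not past 1.5-fold. With no filter, 16 of 40 members were higher and 0 were lower, beside 7.37% and 5.8% of all 19270 genes. The further 6 then included the scaffold genes *Cgn* (ratio 1.68) and *Tjp3* (1.66) and the polarity gene *Crb3* (1.57), besides *Cldn4*, *Cldn23* and *Cldn7*.

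**Figure D1:**
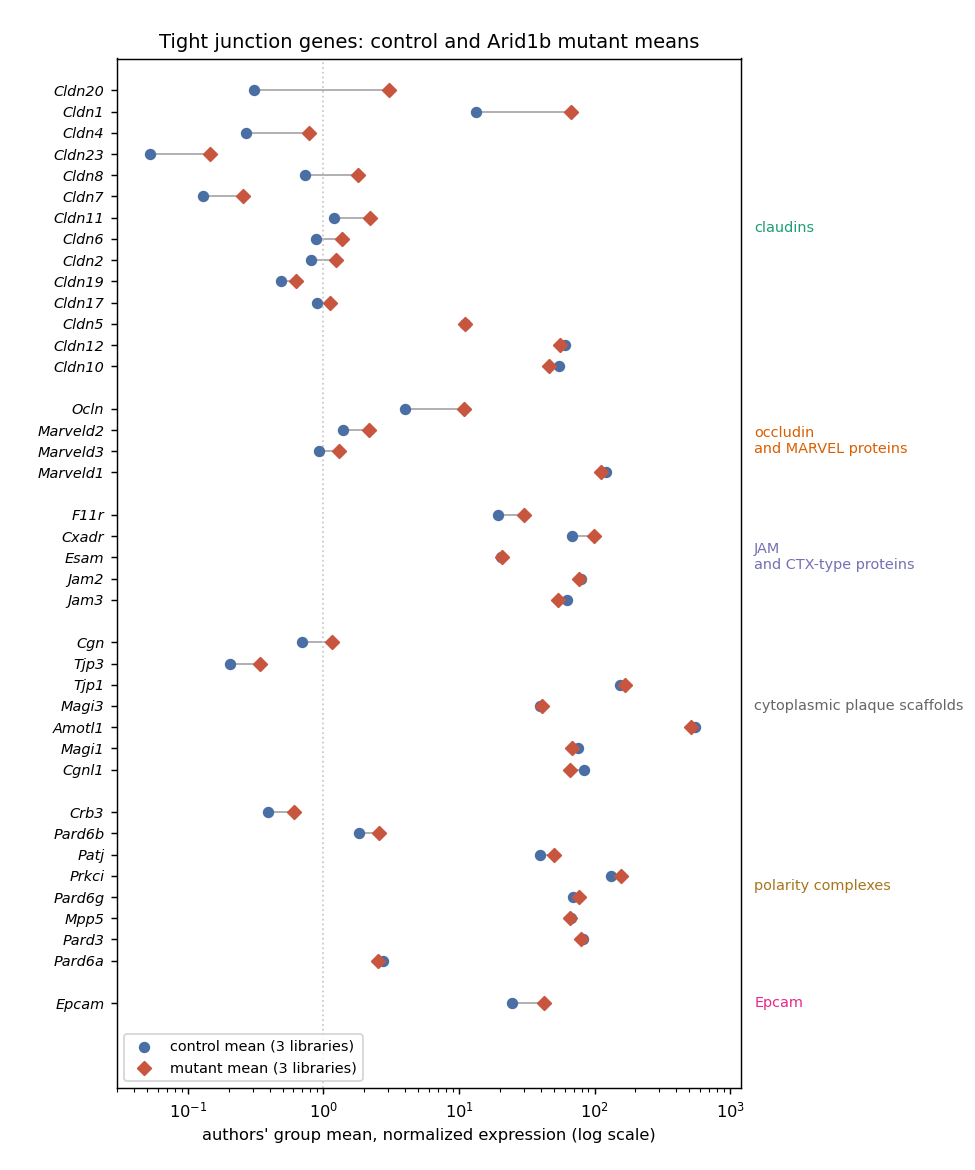
Control mean (blue circles) and mutant mean (red diamonds) of normalized expression for all but 1 of the 40 genes on a log axis, grouped by role, with a dotted line at a mean of 1. Each point is the mean of 3 libraries, no error can be drawn from group means, and the widest gaps are those of *Cldn20* (0.305 and 3.03) and *Cldn1* (13.4 and 67.3).

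The level of a gene bears on how often it passes 1.5-fold. Among the 22 members with a mean of at least 10, the 3 that were higher were *Cldn1*, *F11r* and *Epcam*, where 2.15% of all genes at that level were higher and 0.912% lower. Among the 11 with a mean between 1 and 10, 7 were higher, against 8.75% of all genes higher and 4.24% lower. These 11 include the 6 members that passed the filter only through the mutant mean. Of those 6, *Cldn20*, *Cldn8*, *Cldn6* and *Cldn2* were higher, so the count at this level is not independent of the filter. Of the 7 members with a mean under 1, 6 were past 1.5-fold upwards, at a level where 17.9% of all genes were higher and 18.4% lower. The median log2 ratio of the 33 members was 0.15, and that of all genes was 0.005, with quartiles of -0.10 and 0.11. Among the members with a mean of at least 10 the median was -0.012, with 11 of the 22 ratios above 1.

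**Figure D2:**
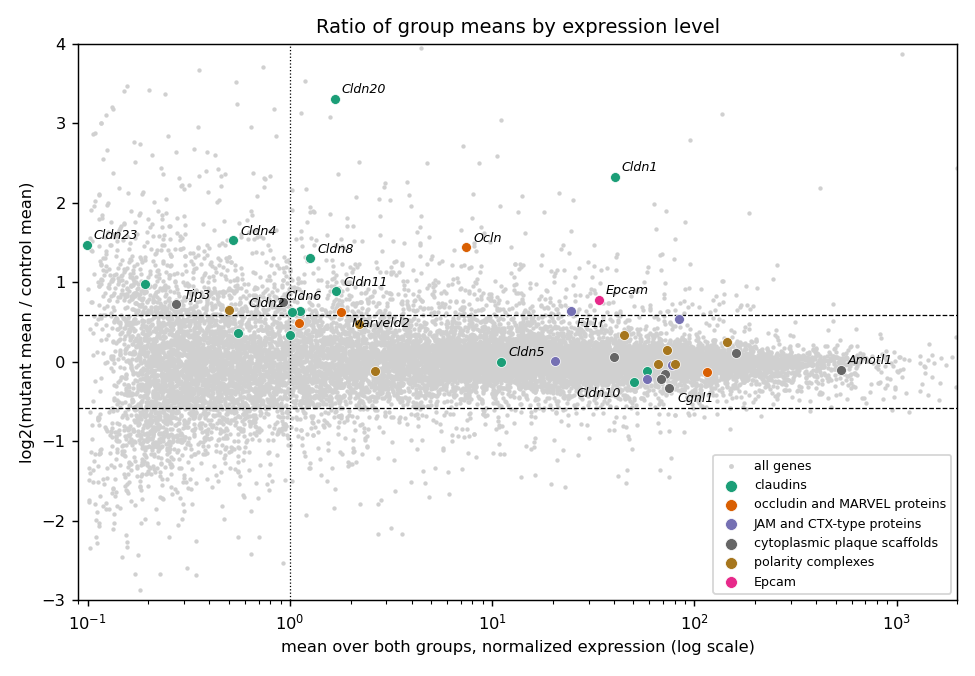
Log2 of mutant mean over control mean (vertical axis) against the mean over both groups (log axis), with all genes in grey and the 40 tight junction genes coloured by role. Genes outside the axes are not drawn, dashed lines mark 1.5-fold and the dotted line a mean of 1. To the right of a mean of 10, *Cldn1*, *F11r* and *Epcam* lie above the upper dashed line and no coloured point lies below the lower one.

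Promoter windows are shown for the 3 well-expressed members that were higher, *Cldn1*, *F11r* and *Epcam*, and for *Ocln*, which codes for occludin. Each is the RefSeq window of 250 bases before to 50 bases after a transcript start on GRCm38.p6, written 5′ to 3′ on the strand of the gene. Capitals mark the E-box CAGGTG on either strand, which reads CACCTG on the reverse one and is known as a binding motif of the Snail and Zeb repressors of epithelial genes. The windows lie at chr16:26371790-26372089 (minus strand) for *Cldn1*, chr13:100552449-100552748 (minus strand) for *Ocln*, chr1:171437311-171437610 (plus strand) for *F11r* and chr17:87635729-87636028 (plus strand) for *Epcam*.
Cldn1: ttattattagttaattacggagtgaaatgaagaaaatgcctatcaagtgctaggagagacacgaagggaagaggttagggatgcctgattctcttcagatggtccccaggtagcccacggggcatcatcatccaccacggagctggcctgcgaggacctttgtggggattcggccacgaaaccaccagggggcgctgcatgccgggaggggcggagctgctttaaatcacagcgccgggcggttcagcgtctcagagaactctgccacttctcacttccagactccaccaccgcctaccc
Ocln: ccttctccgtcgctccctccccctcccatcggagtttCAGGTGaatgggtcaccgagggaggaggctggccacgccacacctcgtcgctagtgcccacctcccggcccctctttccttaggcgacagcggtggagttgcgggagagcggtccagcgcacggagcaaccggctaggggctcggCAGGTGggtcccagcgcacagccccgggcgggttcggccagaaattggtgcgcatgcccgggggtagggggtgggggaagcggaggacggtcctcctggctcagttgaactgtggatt
F11r: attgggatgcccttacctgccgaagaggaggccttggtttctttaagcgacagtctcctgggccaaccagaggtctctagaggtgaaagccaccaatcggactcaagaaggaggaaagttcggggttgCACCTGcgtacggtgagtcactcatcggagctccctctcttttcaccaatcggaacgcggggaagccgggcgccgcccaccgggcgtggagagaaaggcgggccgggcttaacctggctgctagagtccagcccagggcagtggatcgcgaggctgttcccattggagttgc
Epcam: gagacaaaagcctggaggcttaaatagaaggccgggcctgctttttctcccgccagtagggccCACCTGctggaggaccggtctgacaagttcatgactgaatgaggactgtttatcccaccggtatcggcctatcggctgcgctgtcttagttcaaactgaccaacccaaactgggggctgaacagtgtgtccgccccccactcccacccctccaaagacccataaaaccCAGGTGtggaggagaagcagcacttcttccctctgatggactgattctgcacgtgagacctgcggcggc

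Counted from 1 at the 5′ end of the window, the E-box began at positions 38 and 183 in *Ocln*, at 129 in *F11r* and at 64 and 232 in *Epcam*, and it was not in the *Cldn1* window. *Ocln* has an overlapping window of a second start, which shares the first of these matches. Of the 30 members with a window, 14 held the E-box, beside 22.6% of 27025 genes. Among the members that were higher it was in 5 of 9 (*Cldn6*, *Epcam*, *F11r*, *Marveld2* and *Ocln*), and among those that were neither in 5 of 15. The grainyhead-type motif AACNNGTT was in 3 of 30 members and in 4.77% of genes. The letters TATAAA of the TATA box, on either strand and at any position, were in 3 of 30 members and in 15.7% of genes. This match began at position 216 in *Cldn2* and at 108 in a window of *Pard3*. In the overlapping windows of *Marveld2* it lay on the reverse strand near the 5′ end, at 1 and 28. A match of letters is not a bound site, and these data do not measure binding.

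The claudins were the group with the largest ratios. Of 14 claudins, 10 passed the filter, of which 6 were higher, 0 lower and 4 neither, and their median log2 ratio was 0.63. Over all genes that passed, 4.14% were higher and 1.91% lower. However, *Cldn20*, *Cldn8*, *Cldn6*, *Cldn2* and *Cldn17* passed only through the mutant mean, so this count and median are not independent of a higher ratio. Among the 4 claudins with a mean of at least 10, the median was -0.055. *Cldn1* codes for claudin-1, a sealing claudin best known from the barrier of the epidermis. Its mean was 13.4 in controls and 67.3 in mutants, a ratio of 5.02 (4.76 to 5.31 from counting alone). That placed it in position 26 of 14744 genes ordered from the highest ratio.

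*Cldn20*, a claudin with few known functions, had the highest ratio of the group at 9.92, from a mean of 0.305 in controls and 3.03 in mutants. These means correspond to about 10.8 and 130 reads per library, and the counting interval of the read ratio of 10.9 was 7.58 to 16.1. The gene is a single exon on the plus strand at chr17:3532554-3533213, within *Tfb1m* on the minus strand. *Tfb1m*, which codes for a mitochondrial rRNA methyltransferase, shares no exon base with it in GENCODE vM21 and had means of 5.01 and 5.38. *Cldn20* lies 1461 kb from *Arid1b* on the same chromosome.

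The other 4 claudins past 1.5-fold had low means in both groups. *Cldn8*, a claudin of the distal nephron, had 0.729 and 1.80 (ratio 2.47). *Cldn11*, which builds the tight junctions of myelin and of Sertoli cells, had 1.19 and 2.20 (ratio 1.85). *Cldn6*, a claudin of embryonic epithelia, had 0.879 and 1.37 (ratio 1.56). *Cldn2*, which forms a channel for cations and water and is the X-linked member, had 0.807 and 1.24 (ratio 1.54). The last pair lay just past the fold, and each of these 4 genes had fewer than 100 estimated reads per library.

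The 4 claudins that passed the filter without passing 1.5-fold included *Cldn12* and *Cldn10*, which had the highest control means of the group. *Cldn10*, whose protein forms ion-selective channels, had a mean of 54.7 in controls and 45.9 in mutants (ratio 0.837, 0.808 to 0.868 from counting alone). *Cldn12*, an atypical claudin without the usual PDZ-binding end, had 60.5 and 55.9 (ratio 0.924). *Cldn5*, the main claudin of endothelium, had 11.03 and 11.06, a ratio of 1.00 and the nearest to 1 in the group. *Cldn17*, which forms an anion channel, had a ratio of 1.26 at a mean near 1. Summed over the 14 claudins, the level was 145 in controls and 193 in mutants, a ratio of 1.33, so *Cldn1* alone accounted for more than the whole difference.

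The remaining 4 claudins had means under 1 and were not counted. *Cldn4* had 0.269 and 0.777, about 9.42 and 32.7 reads per library. *Cldn23* had 0.0523 and 0.146, and its control mean, about 1.02 reads per library, was the only member mean at or under 3 reads per library. Its read ratio of 4.76 had a counting interval of 1.36 to 25.5. *Cldn7* had 0.129 and 0.255, and *Cldn19* had a ratio of 1.29. In each of the 4 the mutant mean was above the control mean, at a level where ratios spread widely among all genes in both directions, and the counting interval of *Cldn19* ran from 0.915 to 1.90. *Cldn19* shares 90 exon bases with an antisense gene, and the strand setting of the counting is not given in the sources used here.

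Occludin and its relatives split by level. *Ocln* had a mean of 4.01 in controls and 10.9 in mutants, a ratio of 2.72 with a counting interval of 2.46 to 3.04. *Marveld2*, which codes for tricellulin, the protein of 3-cell corners, had 1.40 and 2.17 (ratio 1.54) and lies 43.2 kb from *Ocln* on chromosome 13. *Marveld3* had 0.922 and 1.29 (ratio 1.40). *Marveld1*, which shares the membrane domain that names the family, had 121 and 111 (ratio 0.915), the ratio nearest 1 in the group. The median log2 ratio of the 4 genes was 0.56, and their summed level had a ratio of 0.982 because *Marveld1* made up most of it.

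In the JAM and CTX-type group, 1 of 5 genes passed 1.5-fold. *F11r*, which codes for JAM-A, an adhesion protein of epithelial and endothelial junctions, had 19.2 in controls and 29.9 in mutants (ratio 1.56, 1.48 to 1.64 from counting alone). *Cxadr*, the coxsackie and adenovirus receptor, had 68.6 and 99.6 (ratio 1.45), just inside the fold. It shares as many as 695 exon bases with a single gene on the opposite strand, *Btg3* or *E330011O21Rik*. Which of them holds these bases was not resolved, and *Btg3* had a ratio of 0.975. *Esam*, an endothelial adhesion protein, had 20.5 and 20.6 (ratio 1.00). *Jam2* (ratio 0.974) and *Jam3* (62.6 and 53.8, ratio 0.859), which code for JAM-B and JAM-C, had lower means in the mutants. *Jam3* shares 1159 exon bases with an antisense gene. Over the 5 genes the median log2 ratio was 0.01.

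None of the scaffold genes that passed the filter was past 1.5-fold. *Tjp1*, which codes for ZO-1, the scaffold that binds claudin tails, had means of 155 and 168 (ratio 1.08). *Magi1* had a ratio of 0.900 and *Magi3*, a related scaffold with PDZ domains, a ratio of 1.04, the nearest to 1. *Amotl1*, an angiomotin-like partner of YAP and of the polarity complexes, had 549 and 511 (ratio 0.932). *Cgnl1*, which codes for paracingulin, had 83.3 and 66.3, and its ratio of 0.796 was the lowest of the 40 members. Over the 6 genes the median log2 ratio was -0.13.

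Both remaining scaffolds, which are typical of epithelial junctions, had low means. *Tjp3*, which codes for ZO-3, had a mean of 0.206 in controls and 0.341 in mutants, about 6.96 and 13.8 reads per library, and its read ratio of 1.74 had a counting interval of 1.01 to 3.10. *Cgn*, which codes for cingulin, had 0.691 and 1.16. Both had higher means in the mutants and neither was counted. *Tjp3* shares 40 exon bases with *Apba3* on the opposite strand, which had a ratio of 0.996.

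The 7 polarity genes that passed the filter were likewise all within 1.5-fold. In the PAR complex, *Prkci*, which codes for atypical protein kinase C iota, had 133 and 157 (ratio 1.19), *Pard3* had a ratio of 0.978, and the *Pard6* paralogs had ratios of 1.39 (*Pard6b*), 1.11 (*Pard6g*, means 69.4 and 76.8) and 0.926 (*Pard6a*). In the Crumbs complex, *Patj* had a ratio of 1.27 and *Mpp5*, which codes for PALS1, a ratio of 0.981, the nearest to 1. *Crb3*, the Crumbs protein of epithelia, was under the filter with 0.388 and 0.609 (ratio 1.57). It shares as many as 14 exon bases with a single gene on the opposite strand. The median log2 ratio of the 7 genes that passed was 0.15.

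*Epcam*, an epithelial membrane protein that binds and stabilizes claudins, had 24.7 in controls and 42.5 in mutants, a ratio of 1.72 (1.64 to 1.80 from counting alone). Summed over all 40 members, the level was 1919 in controls and 1996 in mutants, a ratio of 1.04. The sum is set mainly by the scaffolds and polarity genes, while the genes with the largest ratios contribute little to it.

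Divided by exon length, the control levels of the 40 genes ran from 54.6 per kilobase for *Amotl1* down to 0.0283 per kilobase for *Cldn23*. After *Amotl1* came *Marveld1* (28.2 per kilobase), *Prkci* (23.9), *Pard6g* (22.0) and *Cldn10* (21.1), the claudin with the highest level per kilobase. Neighbours in this order cannot be separated, since the group means carry no spread between libraries. The 12 members above 10 per kilobase in controls had ratios between 0.796 and 1.72. *Cldn1* went from 2.77 per kilobase and position 22 in controls to 13.9 per kilobase and position 9 in mutants, between *Jam3* and *Cxadr*. *Cldn20* stood at 0.462 per kilobase in controls and 4.58 per kilobase in mutants.

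**Figure D3:**
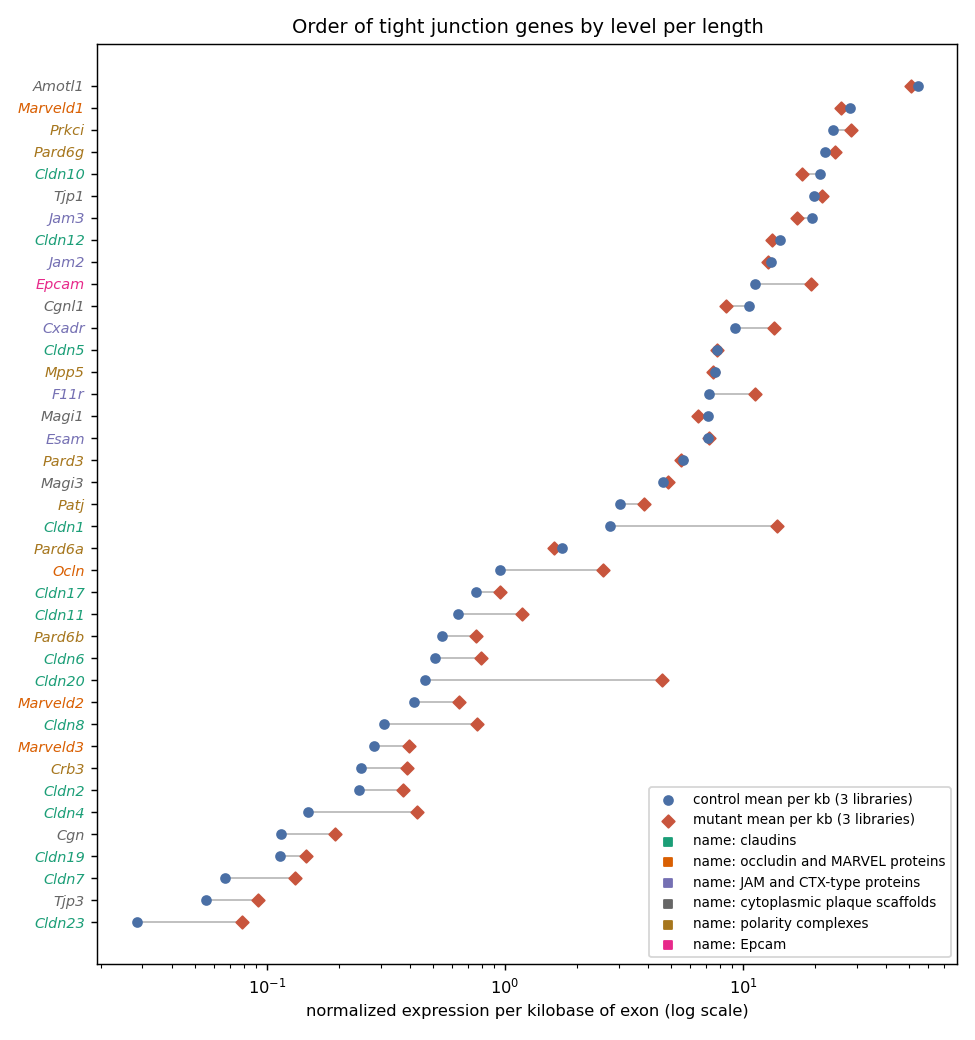
Group means per kilobase of exon for all but 1 of the 40 genes on a log axis, in order of the control level (blue circles, controls; red diamonds, mutants; each the mean of 3 libraries), with gene names coloured by role. *Cldn1*, *Cldn20* and *Ocln* have the widest gaps among genes above 0.4 per kilobase in controls.

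The junction genes were set beside markers of the cell types that the tissue can hold. All 12 epithelial markers had higher means in the mutants and 9 were past 1.5-fold, with ratios of 1.07 to 4.27 and a summed level of 956 in controls and 1741 in mutants. Among them, *Cdh1*, which codes for E-cadherin, had a ratio of 1.81 and *Krt5*, a basal keratin, a ratio of 2.32. The ratios of *Epcam*, *F11r* and *Ocln* lay within the range of this list and those of *Cldn1* and *Cldn20* lay above it. Of 7 ameloblast markers, 4 were higher, and their summed level was 1357 in controls and 9591 in mutants. Their ratios ran from 0.809 to 14.6 (*Enam*), a range that holds those of *Cldn1* and *Cldn20*. The part of the epithelial and ameloblast content of the dissected tissue in the junction values was not tested.

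The 8 endothelial markers had ratios between 0.894 and 1.21, with none past 1.5-fold and a summed level of 447 and 469. Of the members known from endothelial junctions, *Cldn5* and *Esam* had ratios of 1.00, *Jam2* and *Jam3* had 0.974 and 0.859, and *F11r*, which epithelia also use, had 1.56. Among 7 dental mesenchyme markers 2 had ratios above 1, and the summed level was 26350 in controls and 21358 in mutants. Past 1.5-fold 1 was lower, *Gli1* itself (ratio 0.434). Only the mutants carried the Gli1-CreER driver, and its effect on the *Gli1* value was not tested. None of the 5 odontoblast markers had a ratio above 1 (0.348 to 0.858), and 2 were lower past 1.5-fold. Their summed level was 6367 in controls and 5055 in mutants. Of the 5 Schwann cell and glial markers that passed the filter, 1 was higher, *S100b*, at 1.55. All 6 macrophage markers had ratios above 1 (1.04 to 1.32), and none was past 1.5-fold. The oral and cornified epithelium list had 3 of 6 genes in the table, each with a mean under 4. All 4 erythroid markers that passed the filter were lower (0.222 to 0.381), and of 3 skeletal muscle markers 1 was higher and 2 were lower.

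**Figure D4:**
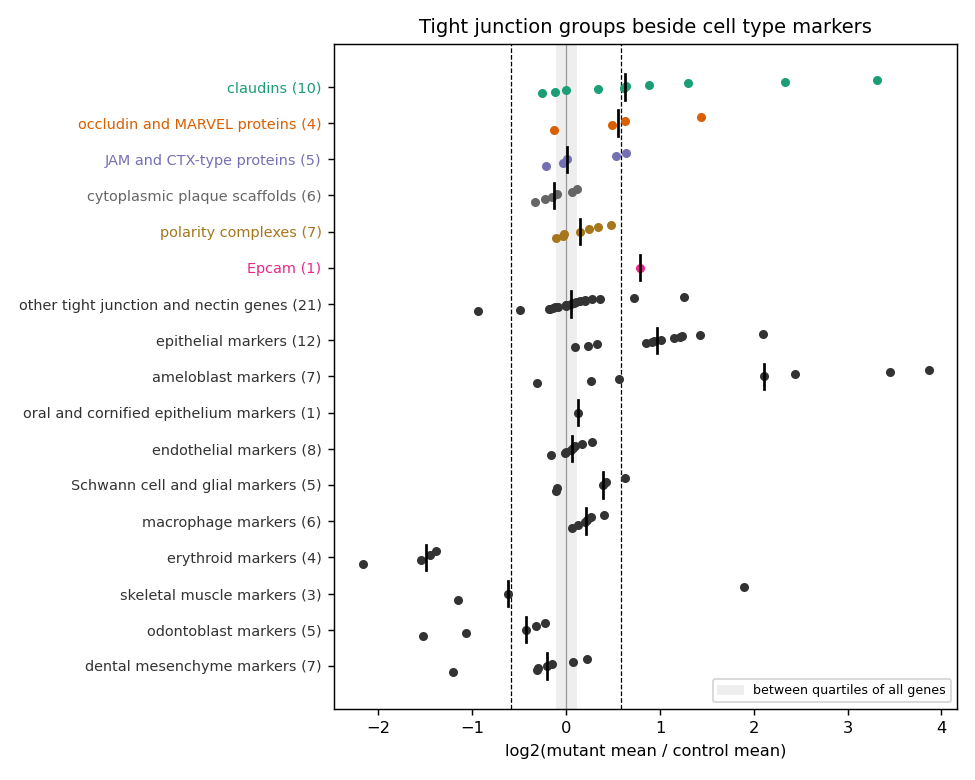
Log2 of mutant mean over control mean for genes with a mean over both groups of at least 1, by tight junction group (coloured) and by comparison list (dark), with the number of genes in parentheses, a black bar at each median, a grey band between the quartiles of all genes and dashed lines at 1.5-fold. Medians to the right of the band are those of the claudins (0.63), MARVEL proteins (0.56), polarity genes (0.15) and *Epcam* (0.78). The epithelial (0.97), ameloblast (2.11), Schwann cell and glial (0.39), macrophage (0.21) and oral and cornified (0.12) medians also lie there. To its left are the scaffold (-0.13), dental mesenchyme (-0.20), odontoblast (-0.42), skeletal muscle (-0.62) and erythroid (-1.50) medians.

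Other genes of tight junctions and of nectin adhesion were taken as a list of 27, of which 23 were in the table and 21 passed the filter. Of these, 2 were higher and 1 was lower. *Nectin4*, an epithelial adhesion protein, had 17.7 in controls and 42.1 in mutants (ratio 2.38), and *Ildr1*, which codes for an angulin that recruits tricellulin to 3-cell corners, had 1.53 and 2.53 (ratio 1.66). *Lin7a*, a PDZ scaffold that binds PALS1, had 3.16 and 1.65 (ratio 0.522). The median log2 ratio of the 21 genes was 0.06. The other 2 angulin genes, *Lsr* and *Ildr2*, had ratios of 1.29 and 1.05 at higher means. Among the other nectins, *Nectin1*, *Nectin2* and *Nectin3* had ratios of 0.891, 0.924 and 1.21.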

How the data were processed

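RNA from the proximal incisor of control and mutant mice was sequenced by the study as 3 control and 3 mutant libraries. Per the methods, the authors used Partek Flow for trimming, alignment to the mm10 genome and the comparison between groups. The submitters' processing notes name TopHat2 version 2.0.8. The counting, annotation, normalization and model are not given in the sources used here. The deposited table gives, for 19270 genes, a normalized signal as the authors' mean of each group. Its 4 columns of the authors' own comparison (p-value, FDR, ratio and fold change) and the authors' filtered list, a selection by that comparison, were not used. The deposited library summary gives the lowest, quartile and mean signal of each library, and 3 other columns per library in it were not used.

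The library upper quartiles lay between 44.57 and 44.58 (rounded), so the libraries had been scaled to a common upper quartile. The lowest mean of each group equalled the average of its libraries' minima, so each signal was taken to be 1 more than the read number, times a factor for its library. This is an inference, and the estimated reads rest on it.

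Ratios of mutant to control means were computed here, with a minimum mean over both groups of 1 and a fold threshold of 1.5. No test was run, because only group means were analysed. The counting was run on group means with planted fold changes and no noise, which checks its arithmetic and not the calls at low read numbers. Exon lengths and positions came from GENCODE vM21 on GRCm38, in which 40 of 40 members matched exactly 1 gene. The values of 1 member, which is in all counts and medians, are not reported here. Of these, 30 had a RefSeq promoter window, each of 300 bases. Members, gene lists and the naming rule (the markers *Cldn10*, *Ocln* and *Tjp3*, members past the fold, the 5 highest per kilobase, the ratio nearest 1 in each group, and listed genes past the fold) were chosen with earlier results of these data known. Examples among the marker lists, neighbouring genes *Lsr*, *Ildr2*, *Nectin1*, *Nectin2* and *Nectin3* were chosen after their values were seen. Alternatives were other folds, filters, centring, a pseudocount, means of log2 ratios, and other length corrections. The software was numpy 2.4.6, scipy 1.17.1, pandas 2.3.3 and matplotlib 3.10.9 under Python 3.11.15.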

Additional observations from a re-analysis of the deposited data

How the results depend on the processing

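The tight junction genes counted as higher numbered 4 at a fold of 2 (1.46% of all genes), 15 at the lower of the other folds tried (9.1% of all genes), 16 with no filter on low means, 3 at a mean of at least 10 and 6 with a pseudocount of 1 (2.91% of all genes), and *Cldn1* was among them under each of these settings. With the pseudocount, *Cldn11*, *Cldn6*, *Cldn2* and *Marveld2* no longer passed 1.5-fold. The only member counted as lower under any setting was *Cgnl1*, 1 gene, at that lower fold, where 7.12% of all genes were lower. The median log2 ratio of the claudins was 0.76 with no filter, 0.32 with the pseudocount and 0.91 as a mean, and it turned to -0.055 among the 4 claudins with a mean of at least 10. At that level occludin and the MARVEL proteins kept only *Marveld1*, at -0.13, and the median of all members turned to -0.012, since the low genes leave. With the pseudocount the MARVEL median was 0.33. With no filter the scaffold median was -0.021 and that of all members 0.35, and as means the JAM group stood at 0.18 and all members at 0.41. Without length correction, 3 of the 5 highest members in controls remained. Centring on the median of all genes, and taking off the lowest mean of each group (an alternative chosen after seeing the data), moved no count and no median by more than 0.1. No paired analysis was possible because only group means were used, and for the same reason leaving out each replicate was not run. Depth limits *Cldn23*, *Cldn7*, *Cldn4*, *Tjp3* and the other members with a mean under 1.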
